A study of Mus musculus with 18 samples.

Results

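*Adipoq*, *Lep*, *Retn*, *Cfd*, *Plin1*, *Cidec*, *Lipe*, *Pnpla2*, *Fabp4* and *Pparg* are 10 lipid and adipokine genes of adipocytes, and they were read by symbol in bulk RNA-seq of aortae from mice with an edited *Tspan2* promoter. At least *Fabp4* and *Pparg* among them are also expressed by other cell types. The count tables held 55453 gene symbols, all 10 genes were among them, and all 10 passed the filter on low counts in both experiments. In the HDR experiment, Cas9 with a guide RNA and a repair oligonucleotide had exchanged neighbouring bases of a CArG box, the sequence bound by serum response factor, and 5 wild-type aortae were compared with 5 aortae homozygous for the edit (*sg/sg*). In the PE2 experiment, prime editor 2, a Cas9 nickase joined to a reverse transcriptase, had made a C-to-G change there, and 4 wild-type aortae were compared with 4 homozygous aortae (*peg/peg*). All HDR mice were 12 weeks old, with 3 females and 2 males of each genotype, and carried the strain label C57BL/6. The PE2 mice were 8 weeks old, with 3 females and 1 male of the wild type and 4 *peg/peg* females, and carried the strain label FVB/N/B6(Cg)-Tyrc-2J/J. The methods instead derive both lines from oocytes of 1 cross of B6(Cg) and FVB mice and breed the founders to C57BL/6J. The edit is in the germline, so every cell type of the aorta carries it, and each library is a single whole aorta from which the surrounding tissue had been cleaned off. The design asks which genes of the aorta respond to the edit. Age, strain label and sequencing depth differ between the experiments along with the edit, and their parts in any difference between the experiments cannot be told apart.

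White and brown adipocytes store fat as triglyceride in droplets coated by perilipins and release it through a chain of lipases. The nuclear receptor PPARγ drives the genes of storage, and adipocytes also secrete hormones, the adipokines, which act on appetite, insulin sensitivity and the vessel wall. The mouse aorta is wrapped in fat, much of it brown along the thoracic part. How much fat stayed on each dissected aorta was not measured, and in bulk RNA a smaller number of adipocytes and less RNA of a gene per adipocyte cannot be told apart.

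The edited box and the promoters of the genes described here are shown first, since the edit acts on a promoter. The guide of both editors reads the reverse strand of chromosome 3 at chr3:102734427-102734449 (GRCm38), upstream of *Tspan2*, and the CArG box is in capitals at the end of the site.
*Tspan2* site: tagaggactgttaCCTTAATAGG
*Fabp4* is the only one of the 10 genes on that chromosome, and it lies 92.5 Mb from the site. RefSeq (GRCm38.p6) gave promoter windows for 9 of the 10 genes, 13 windows in all, from 250 bases before to 50 bases after each start. *Fabp4* had no window, so its promoter was not read. The CArG box (CC, then 6 bases of A or T, then GG) was in 0 of the 13 windows and in 1.63% of the 32851 promoter windows of the genome. A direct repeat of AGGTCA with any 1 base between the copies, a form of the element bound by PPARγ with RXR, was also in 0 of them and in 0.0396% of all promoters. The edited CArG box itself lies outside the nearest window of *Tspan2* (chr3:102734520-102734819), so such windows can miss a box that acts on a gene. The 0 matches therefore do not show that these genes lack a CArG box. CCAAT was in 3 of the 13 windows, of 2 genes (*Adipoq* and *Pparg*), and in 37.4% of all promoter windows. TATAAA was in 1 window of *Pparg* and in 13.6%, and both strands were read. Another pair of motifs was added after the sequences were seen. TTGCNNAA, a form of the site bound by C/EBP factors, was in 4 of the 13 windows, of 4 genes (*Lep*, *Plin1*, *Cidec* and *Pparg*). It was in 10.8% of all promoter windows. GGGCGG, the core of an SP1 site, was in 5 of the 13 windows, of 4 genes (*Lep*, *Lipe*, *Pnpla2* and *Pparg*), and in 35.7% of all promoter windows. The 250 bases before the start are printed for *Adipoq*, for *Plin1*, whose level followed that of *Adipoq* most closely in the HDR libraries, and for *Lep*, whose level followed it least closely there. The regions are chr16:23146286-23146535, forward strand, for *Adipoq*, chr7:79732777-79733026, reverse strand, for *Plin1* and chr6:29059971-29060220, forward strand, for *Lep*. The starts are those of RefSeq. Gencode M21 puts the start of *Plin1* at 79732903, which is inside its printed region. Capitals mark CCAAT, on either strand, in *Adipoq* and TTGCNNAA in *Plin1* and *Lep*, and the marked matches do not overlap.
*Adipoq*: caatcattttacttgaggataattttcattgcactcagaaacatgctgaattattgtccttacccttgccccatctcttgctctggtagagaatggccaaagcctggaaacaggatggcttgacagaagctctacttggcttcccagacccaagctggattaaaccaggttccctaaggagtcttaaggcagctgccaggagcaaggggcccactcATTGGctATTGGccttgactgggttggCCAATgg
*Plin1*: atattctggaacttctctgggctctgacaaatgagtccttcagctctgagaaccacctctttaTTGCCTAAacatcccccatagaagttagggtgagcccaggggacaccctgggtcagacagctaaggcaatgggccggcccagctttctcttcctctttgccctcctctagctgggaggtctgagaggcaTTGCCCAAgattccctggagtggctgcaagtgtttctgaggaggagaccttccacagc
*Lep*: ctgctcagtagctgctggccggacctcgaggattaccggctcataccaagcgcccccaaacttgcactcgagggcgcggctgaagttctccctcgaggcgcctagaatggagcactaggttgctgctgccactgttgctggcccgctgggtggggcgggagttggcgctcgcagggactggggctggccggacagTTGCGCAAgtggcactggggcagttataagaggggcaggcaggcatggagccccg
*Adipoq* held CCAAT 3 times within its last 34 bases before the start, *Plin1* held TTGCNNAA 2 times and *Lep* held it once, 55 bases before the start. A match of letters is a description of the sequence and not a site of binding.

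HDR libraries held 17290992 to 24880385 counts and PE2 libraries 38820265 to 44895615. *Tspan2*, which checks the labels, was at 209 ± 60.1 CPM in HDR wild-type and 24.9 ± 8.12 CPM in *sg/sg* aortae (SD, n = 5 each), and in both experiments all mutant libraries were lower than all wild-type ones. The smooth muscle gene *Acta2* was at 7960 CPM in HDR and 18320 CPM in PE2 wild-type aortae on average. *Tspan2* was the 1 gene that edgeR's quasi-likelihood test called in each experiment at an adjusted p under 0.05, which is 0.00609% of the 16423 HDR genes and 0.0061% of the 16401 PE2 genes tested. CPM are counts scaled by TMM to a common library size, and ± gives the SD. SE is the standard error implied by edgeR's test, the size of the log2 fold change divided by the square root of its F statistic.

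RNA of the 10 genes was present in all libraries of both experiments, and its amount varied several-fold among aortae of the same genotype. Summed over the 10 genes, HDR wild-type aortae held 1347 to 6556 CPM (median 2958) and *sg/sg* aortae held 978 to 3612 CPM (median 2159). The PE2 sum ran from 1698 to 5742 CPM (median 4134) in the wild type and from 379 to 3911 CPM (median 2628) in *peg/peg* aortae. The ranges of the genotypes overlapped in both experiments.

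Compared per kilobase of merged exon, the scale on which genes of different length can be set side by side, the 10 genes spanned a wide range in HDR wild-type aortae. *Cfd*, which encodes the complement protease adipsin, led at 1096 ± 729 CPM per kb (n = 5), followed by *Fabp4* at 235 ± 172, *Adipoq* at 140 ± 100, *Pnpla2* at 84.4 ± 38.8 and *Cidec* at 79.9 ± 54.9 CPM per kb. *Plin1* (36.4 ± 22.8), *Retn* (35.5 ± 29.8) and *Lipe* (33.8 ± 21.1) came next, ahead of *Pparg* at 15.3 ± 7.32 and *Lep* at 4.06 ± 3.41 CPM per kb. PE2 wild-type aortae had *Cfd* at 669 ± 562, *Fabp4* at 489 ± 166, *Adipoq* at 142 ± 83.9, *Pnpla2* at 136 ± 53.9 and *Cidec* at 68.6 ± 37.3 CPM per kb (n = 4). Below these were *Plin1* (31.1 ± 14.9), *Lipe* (29.3 ± 11.9), *Pparg* (13.5 ± 6.26), *Retn* (12.8 ± 7.12) and *Lep* (1.81 ± 1.00). The same 5 genes led and *Lep* was last in both experiments, while *Retn* stood above *Lipe* and *Pparg* in the HDR and below both in the PE2 wild type. Neighbours in these orders mostly differed by less than the SD over libraries, as *Plin1*, *Retn* and *Lipe* did in the HDR and *Pparg* and *Retn* in the PE2 wild type. Merged exons count every annotated isoform, which lowers the value of a gene such as *Fabp4* whose annotation holds 4489 bases.

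**Figure D1:**
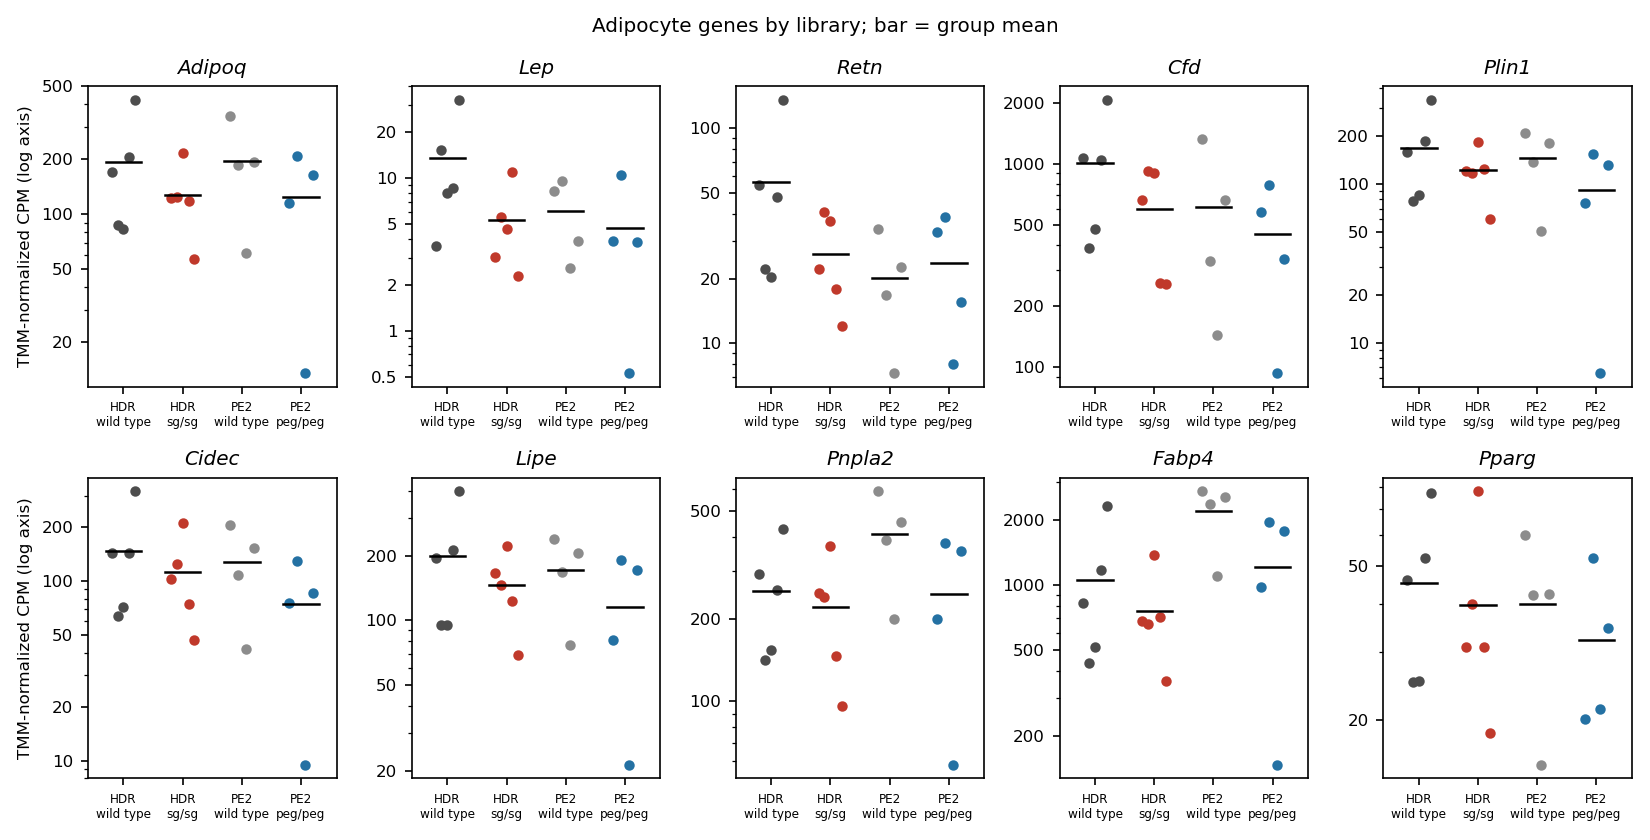
TMM-normalized CPM (log axis) of the 10 adipocyte genes in each library, by experiment and genotype, with a bar at the group mean (n = 5 in each HDR group, n = 4 in each PE2 group). The points of wild type and mutant overlap in all panels, and a single *peg/peg* library lies far below the other 3 for *Adipoq* (13.5 CPM), *Plin1* (6.44 CPM) and *Fabp4* (147 CPM).

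None of the 10 genes was called between genotypes in either experiment, and for none did the groups separate. In *sg/sg* aortae 0 of 10 were called, against the 0.00609% of all tested genes, and 0 of 10 had CPM that did not overlap between genotypes, against 0.317% of all tested genes. In *peg/peg* aortae 0 of 10 were called, against 0.0061%, 0 of 10 had an unadjusted p under 0.05, against 4.3%, and 0 of 10 did not overlap, against 2.54%. DESeq2's Wald test also called 0 of 10 in both, against 0.00933% of the HDR and 0.189% of the PE2 genes to which it gave an adjusted p. The fitted log2 fold changes lay below 0 for 10 of 10 genes in the HDR experiment, where 49.1% of all tested genes did, and for 9 of 10 in the PE2 experiment, where 47.8% did. Their median was -0.48 in *sg/sg* and -0.61 in *peg/peg* aortae, beside medians of 0.00 and 0.01 over all genes tested. The 10 genes vary together from library to library, so 10 values below 0 are not 10 separate observations. In HDR aortae the SE of a log2 fold change was 0.45 for the median adipocyte gene, against 0.19 for the median of all genes tested. In PE2 aortae these were 0.70 and 0.22. A change within about 1.96 such errors of 0 was not detectable, and a call over all genes tested needed a larger one. In *sg/sg* aortae *Lep*, at -1.36 (SE 0.56), and *Retn*, at -1.11 (SE 0.51, unadjusted p = 0.0513 by edgeR), lay further from 0 than that and were not called.

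The adipokines come first. *Adipoq*, on chromosome 16 from 23146536 to 23158028 of GRCm38, encodes adiponectin, which raises insulin sensitivity. In the HDR wild type it was at 169, 87.6, 83.0, 205 and 423 CPM in libraries WT_2 to WT_6, and in *sg/sg* at 123, 124, 216, 118 and 56.7 CPM in libraries Mut_2 to Mut_6. WT_6 was high, Mut_6 was low, and the other 8 libraries lay in between with the genotypes mixed. The log2 fold change was -0.60 (SE 0.45, with 1.96 SE either way reaching from -1.48 to 0.28, adjusted p = 1.00 by edgeR). PE2 aortae had *Adipoq* at 344, 186, 61.1 and 192 CPM in wild-type replicates 1 to 4 and at 115, 208, 13.5 and 164 CPM in *peg/peg* replicates 1 to 4. *Peg/peg* replicate 3 was 12.1-fold below the median of the other *peg/peg* aortae, and those 3 lay inside the wild-type range. The log2 fold change was -0.65 (SE 0.76, 1.96 SE either way from -2.13 to 0.83, adjusted p = 0.877 by edgeR).

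*Lep*, on chromosome 6 from 29060220 to 29073877, encodes leptin, the hormone by which fat reports its stores to the brain. It was the least abundant of the 10 genes, at 3.57, 15.2, 8.03, 8.58 and 32.7 CPM in WT_2 to WT_6 and at 3.06, 5.55, 4.64, 10.99 and 2.29 CPM in Mut_2 to Mut_6. Mut_2 and Mut_6 lay below all wild-type aortae, while Mut_5 lay above 3 of the 5. The log2 fold change of -1.36 (SE 0.56) was the lowest of the 10, and *Lep* was the 1 gene of the 10 with an unadjusted p under 0.05, against 1.98% of all tested genes. It was not called (adjusted p = 1.00 by edgeR). Without WT_6 the log2 fold change was -0.73 (SE 0.47). PE2 wild-type values of *Lep* were 8.26, 9.54, 2.56 and 3.87 CPM and the *peg/peg* values 3.88, 10.5, 0.527 and 3.83 CPM, the low value resting on 24 counts. Its log2 fold change was -0.37 (SE 0.77, adjusted p = 0.927 by edgeR) with all libraries and 0.00 (SE 0.54) without *peg/peg* replicate 3.

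*Retn*, on chromosome 8 from 3655770 to 3660110, encodes resistin, which in mice is made by adipocytes and opposes insulin. It was at 54.4, 22.2, 20.3, 47.7 and 136 CPM in WT_2 to WT_6 and at 22.3, 40.9, 37.1, 17.9 and 12.0 CPM in Mut_2 to Mut_6. Mut_5 and Mut_6 lay below the lowest wild-type value, and WT_6 was 3.88-fold above the median of the other wild-type aortae. The HDR log2 fold change was -1.11 (SE 0.51, adjusted p = 1.00 and unadjusted p = 0.0513 by edgeR), and without WT_6 it was -0.47 (SE 0.39). PE2 values of *Retn* were 34.1, 16.7, 7.28 and 22.6 CPM in the wild type and 32.8, 38.7, 8.06 and 15.6 CPM in *peg/peg*. It was the 1 gene of the 10 with a PE2 log2 fold change above 0, at 0.24 (SE 0.57, adjusted p = 0.936 by edgeR), and the sign turned without wild-type replicate 3 (-0.05) or without *peg/peg* replicate 2 (-0.10). The HDR change minus the PE2 change of *Retn* was -1.33 (log2, SE 0.81, adjusted p = 0.974 by edgeR's interaction test), so the experiments were not resolved from each other.

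*Cfd*, on chromosome 10 from 79890853 to 79892655, encodes adipsin, the protease that starts the alternative complement pathway. WT_2 to WT_6 held 1073, 385, 480, 1043 and 2072 CPM, and Mut_2 to Mut_6 held 662, 922, 907, 260 and 257 CPM. The mutants split into 3 aortae inside the wild-type range and 2 below it. The log2 fold change was -0.75 (SE 0.50, adjusted p = 1.00 by edgeR), and it was -0.31 without WT_6. PE2 wild-type aortae held 1323, 332, 145 and 669 CPM and *peg/peg* aortae held 583, 789, 93.6 and 340 CPM. Here the log2 fold change was -0.45 (SE 0.77, adjusted p = 0.913 by edgeR), and without wild-type replicate 1, the highest library, it was 0.23.

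**Figure D2:**
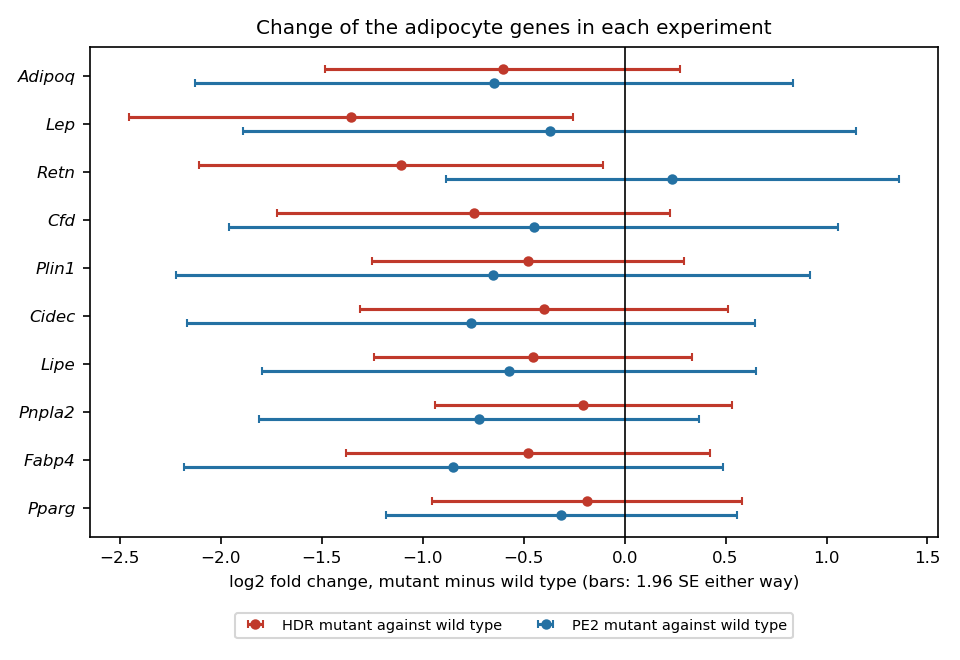
Fitted log2 fold change, mutant minus wild type, of each of the 10 adipocyte genes in the HDR and the PE2 experiment, with bars of 1.96 SE either way. All 10 HDR points and 9 of 10 PE2 points lie below 0, the bars of 8 HDR genes and of all 10 PE2 genes cross 0, and those of *Lep* and *Retn* in the HDR experiment do not. The bars make no allowance for the few libraries or the number of genes tested, and *Retn* had an unadjusted p of 0.0513 by edgeR.

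The genes of the lipid droplet followed *Adipoq* more closely than the adipokines did. *Plin1*, on chromosome 7 from 79720218 to 79732903, encodes perilipin 1, which coats the droplet and controls access of lipases to it. It was at 159, 77.9, 84.7, 186 and 339 CPM in WT_2 to WT_6 and at 121, 117, 185, 124 and 60.1 CPM in Mut_2 to Mut_6. WT_5 and WT_6 stood above all mutants and Mut_6 below all wild-type aortae, with the rest mixed, and the log2 fold change was -0.48 (SE 0.39, adjusted p = 1.00 by edgeR). *Plin1* in PE2 aortae was at 210, 137, 50.7 and 181 CPM in the wild type and at 76.2, 154, 6.44 and 132 CPM in *peg/peg*. Its value in *peg/peg* replicate 3 was 20.5-fold below the median of the other 3, the widest gap among the 10 genes in that aorta. The PE2 log2 fold change was -0.65 (SE 0.80, adjusted p = 0.883 by edgeR), and it was -0.27 (SE 0.45) without that library. *Cidec*, on chromosome 6 from 113424634 to 113435760, encodes a protein through which droplets fuse into the single large droplet of white fat. It ran from 64.4 to 318 CPM in the HDR wild type, from 47.3 to 211 CPM in *sg/sg*, from 42.1 to 205 CPM in the PE2 wild type and from 9.51 to 129 CPM in *peg/peg*. Its log2 fold changes were -0.40 (SE 0.46, adjusted p = 1.00 by edgeR) and -0.76 (SE 0.72, adjusted p = 0.867 by edgeR).

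The lipases showed the same spread. *Pnpla2*, on chromosome 7 from 141455198 to 141460743, encodes the lipase that takes the first fatty acid off a triglyceride, and *Lipe*, on chromosome 7 from 25379527 to 25398710, encodes hormone-sensitive lipase, which takes the next. *Pnpla2* ranged from 141 to 429 CPM in the HDR wild type and from 95.9 to 370 CPM in *sg/sg*, with a log2 fold change of -0.21 (SE 0.38, adjusted p = 1.00 by edgeR). *Lipe* ranged from 94.96 to 399 CPM and from 69.3 to 222 CPM, with a log2 fold change of -0.45 (SE 0.40, adjusted p = 1.00 by edgeR). PE2 *Pnpla2* lay between 199 and 590 CPM in the wild type and between 58.4 and 380 CPM in *peg/peg* (log2 fold change -0.72, SE 0.56, adjusted p = 0.861 by edgeR), and *Lipe* between 76.9 and 239 CPM and between 21.4 and 190 CPM (-0.57, SE 0.62, adjusted p = 0.873 by edgeR). The annotation places an antisense gene, 4732471J01Rik, across *Lipe*. It held 521 counts over all HDR and 147 over all PE2 libraries, and since the strand setting of the counting is not given in the sources used here, reads of this pair cannot be told apart.

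*Fabp4*, on chromosome 3 from 10204088 to 10208576, encodes the main fatty acid carrier of the adipocyte cytosol and is also made by capillary endothelium and macrophages. In the HDR experiment it was at 821, 434, 518, 1170 and 2331 CPM in WT_2 to WT_6 and at 678, 659, 1381, 710 and 360 CPM in Mut_2 to Mut_6 (log2 fold change -0.48, SE 0.46, adjusted p = 1.00 by edgeR). PE2 wild-type aortae were at 2727, 2381, 1098 and 2572 CPM and *peg/peg* aortae at 982, 1959, 147 and 1784 CPM. With *peg/peg* replicates 1 and 3 below all wild-type aortae, *Fabp4* had the lowest log2 fold change of the 10 in the PE2 experiment, -0.85 (SE 0.68, 1.96 SE either way from -2.19 to 0.49, adjusted p = 0.861 by edgeR). Without *peg/peg* replicate 3 it was -0.49 (SE 0.35).

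*Pparg*, on chromosome 6 from 115360951 to 115490399, encodes PPARγ, on which adipocyte formation depends, and it is expressed in some endothelial, smooth muscle and myeloid cells too. It was at 45.9, 25.1, 25.2, 52.5 and 77.0 CPM in WT_2 to WT_6 and at 31.0, 39.9, 78.1, 30.8 and 18.5 CPM in Mut_2 to Mut_6. *Pparg* was the exception to WT_6 holding the highest value of the experiment, since Mut_4 was slightly above it. The log2 fold change was -0.19 (SE 0.39, adjusted p = 1.00 by edgeR), the nearest to 0 of the 10. PE2 wild-type aortae were at 60.2, 42.0, 15.3 and 42.3 CPM and *peg/peg* aortae at 20.1, 52.6, 21.4 and 34.6 CPM, so all 4 mutant values lay inside the wild-type range. The PE2 log2 fold change was -0.31 (SE 0.44, adjusted p = 0.893 by edgeR). An antisense gene, Gm44079, also lies across *Pparg*, and it held 3 counts over the HDR and 0 over the PE2 libraries.

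Single aortae set much of the level of all 10 genes. WT_6 held the highest wild-type value for 10 of 10 genes, 2.09-fold (*Pnpla2*) to 3.94-fold (*Lep*) above the median of the other 4. Mut_6 held the lowest value of the experiment for 10 of 10, 1.91-fold (*Pparg*) to 3.05-fold (*Cfd*) below the median of the other *sg/sg* aortae. In WT_6, macrophage markers summed to 636 CPM (241 to 374 CPM in the other wild-type aortae) and brown fat markers to 1567 CPM (466 to 1163 CPM), and in Mut_6 smooth muscle markers summed to 35790 CPM (15980 to 26510 CPM in the other *sg/sg* aortae). The part of these cell types in the values of the 10 genes was not tested. Without WT_6 the HDR log2 fold changes split into 6 below and 4 above 0, with a median of -0.05, and the 4 that turned were *Cidec* (0.084), *Pnpla2* (0.064), *Fabp4* (0.040) and *Pparg* (0.091). Without Mut_6 all 10 stayed below 0, with a median of -0.30. For PE2 aortae, leaving out *peg/peg* replicate 3 moved the median from -0.61 to -0.25, and leaving out wild-type replicate 1 moved it to -0.31. Without *peg/peg* replicate 2, the highest of the mutants for 10 of 10 genes, it was -1.01 and all 10 lay below 0. In every one of these fits edgeR called 0 of the 10 genes.

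The genes differed in how closely they kept step with each other from aorta to aorta. Over the 10 HDR libraries the median Pearson r of log2 CPM between pairs of the genes was 0.92 (45 pairs, 0.25 to 0.99), and over the 8 PE2 libraries it was 0.88 (45 pairs, 0.59 to 0.99), as descriptions over libraries that include both genotypes. *Adipoq* and *Plin1* had the highest r of the HDR pairs, 0.99. *Lep* stood apart, with a median r with the other genes of 0.41, against 0.88 to 0.96 for each of the others. The ratio of *Lep* to *Adipoq* CPM ranged 8.24-fold over the HDR libraries, from 0.0211 in WT_2 to 0.174 in WT_3, while the ratio of *Plin1* to *Adipoq* ranged 1.32-fold, from 0.802 in WT_6 to 1.06 in Mut_6. WT_3 shows the difference within 1 aorta. It had the lowest or next to lowest wild-type value of *Adipoq*, *Plin1*, *Cidec*, *Lipe* and *Fabp4*, yet its *Lep* level of 15.2 CPM was the next to highest of the experiment.

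In the PE2 libraries *Lep* kept step with the others (median r 0.88, ratio to *Adipoq* over a 2.55-fold range), and *Pparg* and *Retn* departed instead. Their median r with the other genes were 0.74 and 0.70. The ratio of *Pparg* to *Adipoq* ranged 9.05-fold over 8 libraries, but 1.45-fold over the 7 without *peg/peg* replicate 3, where it lay between 0.175 and 0.253. In *peg/peg* replicate 3 it was 1.58, because *Pparg* was 1.62-fold below the median of the other *peg/peg* aortae while *Adipoq* was 12.1-fold below. *Retn* relative to *Adipoq* was 0.597 in that aorta and ranged from 0.0899 to 0.286 in the other 7, and *peg/peg* replicate 1 had the highest of these. Over those 7 the ratio to *Adipoq* ranged 2.55-fold for *Lep*, 3.18-fold for *Retn* and 2.85-fold for *Cfd*, each wider than for *Pparg*.

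**Figure D3:**
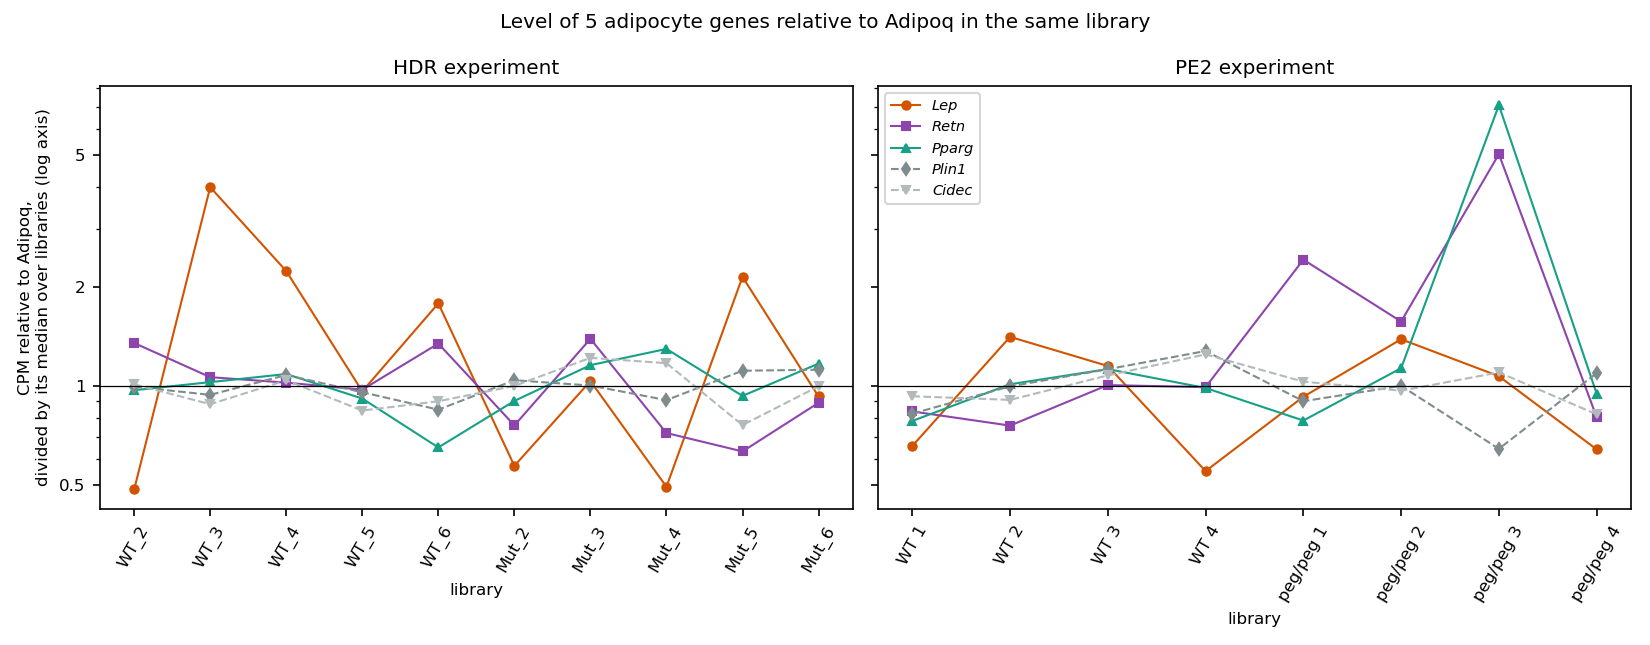
CPM of *Lep*, *Retn*, *Pparg*, *Plin1* and *Cidec* divided by the CPM of *Adipoq* in the same library, relative to the median of that ratio over the libraries of the experiment (log axis), for the 10 HDR and 8 PE2 libraries. *Lep* swings widely in the HDR panel (ratio to *Adipoq* of 0.0211 to 0.174) while *Plin1* stays near 1, and *Pparg* and *Retn* peak in *peg/peg* replicate 3 (ratios of 1.58 and 0.597).

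The aorta with the lowest sum of the 10 genes, *peg/peg* replicate 3, differed in markers of other cell types as well. Brown fat markers summed to 50.5 CPM there, against 626 to 1873 CPM in the other *peg/peg* aortae. *Ucp1*, the uncoupling protein that makes brown fat produce heat, was at 1.36 CPM, 584-fold below the median of the other 3, a wider gap than that of any of the 10 general adipocyte genes. Endothelial markers summed to 697 CPM (1337 to 3079 CPM in the other 3), macrophage markers to 682 CPM (221 to 322 CPM), smooth muscle markers to 58080 CPM (27760 to 44620 CPM) and skeletal muscle markers to 1134 CPM (11.7 to 15.7 CPM). The part of these cell types in the values of *Pparg*, *Fabp4* and *Retn* in that aorta was not tested.

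Across the libraries, the 10 genes varied with the brown fat markers and against the smooth muscle markers. The mean of the 10 standardized genes had r = 0.91 with the mean of the standardized brown fat markers over the 10 HDR libraries and 0.94 over the 8 PE2 libraries, and r = -0.81 and -0.88 with that of the smooth muscle markers. These are shares of 1 total in each library, and a larger share of one lowers the others. Brown fat markers spanned 466 to 1567 CPM in the HDR wild type and 423 to 1612 CPM in *sg/sg*, and 790 to 2606 CPM in the PE2 wild type and 50.5 to 1873 CPM in *peg/peg*. At an unadjusted p under 0.05, 0 of 10 brown fat markers differed in either experiment, against 1.98% of all tested HDR genes and 4.3% of all tested PE2 genes. The genes most like the 10 in pattern were *Car3* (r = 0.994), a carbonic anhydrase abundant in fat, and *Gstz1*, *Acp5*, *Aldh5a1* and *Prxl2a* in the HDR libraries (n = 10). In the PE2 libraries (n = 8) they were *Acp5* (r = 0.996), *Klb*, the co-receptor for FGF21, *Ankef1*, *Prkar2b*, a regulatory subunit of protein kinase A, and *Pcx*, pyruvate carboxylase. *Acp5*, a tartrate-resistant phosphatase, was on both lists.

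Macrophages also express *Fabp4* and *Pparg*, and their 8 markers had fold changes of opposite sign in the experiments. All 8 had a log2 fold change below 0 in *sg/sg* (median -0.66, 5 of 8 at an unadjusted p under 0.05 and lower, against 1.63% of all tested genes, 0 called) and all 8 above 0 in *peg/peg* (median 0.63, 0 of 8 at an unadjusted p under 0.05). Without WT_6, 8 of 8 stayed below 0 in *sg/sg* (median -0.37) and 1 of 8 passed the unadjusted threshold lower, against 0.863% of all genes then tested. Without Mut_6, 8 of 8 stayed below 0 too (median -0.61) and 2 of 8 passed, against 0.98%. Without *peg/peg* replicate 3, 3 of 8 lay below 0 in the PE2 experiment and the median was 0.07. Their sum was 241 to 636 CPM in the HDR wild type and 182 to 332 CPM in *sg/sg*, and 121 to 430 CPM in the PE2 wild type and 221 to 682 CPM in *peg/peg*. The mean of the standardized macrophage markers had r = 0.64 with that of the 10 adipocyte genes in the HDR and -0.27 in the PE2 libraries. Endothelial markers summed to 957 to 1871 CPM and 1008 to 2528 CPM in the HDR genotypes, and 1452 to 2248 CPM and 697 to 3079 CPM in the PE2 genotypes. Fibroblast markers also lay on opposite sides of 0, with 7 of 8 below 0 in *sg/sg* (median -0.24) and 8 of 8 above 0 in *peg/peg* (median 0.43), and they did so without WT_6 (7 of 8 below 0, median -0.12) and without *peg/peg* replicate 3 (8 of 8 above 0, median 0.33). They had 0 of 8 and lymphoid markers 0 of 6 HDR genes at an unadjusted p under 0.05. Their PE2 counts were 0 of 8 and 1 of 8. Unadjusted, 0 of 8 endothelial and 0 of 8 smooth muscle markers passed 0.05 in HDR aortae. Of the skeletal muscle markers 4 of 7 passed, all higher in *sg/sg*, where 0.353% of all tested genes were. The 4 of 7 stayed without WT_6 and without Mut_6. These 4 averaged only 0.489 (*Atp2a1*) to 1.23 CPM (*Myh1*) in the HDR wild type. *Acta1* (log2 fold change -1.99, SE 1.29) and *Ckm* (-0.50, SE 0.96) of the same list lay below 0. Summed, the skeletal muscle markers were highest in a wild-type aorta, WT_3, at 128 CPM, and reached 86.2 CPM in *sg/sg* (Mut_5). In PE2 aortae 1 of 8 endothelial markers passed 0.05 lower, and 2 of 8 smooth muscle and 2 of 7 skeletal muscle markers passed it higher. There 1.27% of all tested genes were lower and 3.04% higher. Without *peg/peg* replicate 3 these counts were 2 of 8 lower, 1 of 8 higher and 0 of 7, against 1.91% lower and 2.19% higher. None of the markers was called.

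The wider adipocyte programme was read through 64 other genes in 5 lists, of which 62 HDR and 64 PE2 genes were tested. None was called. In *sg/sg* aortae 48 of the 62 lay below 0, with a median log2 fold change of -0.24. Unadjusted, 7 passed 0.05 lower and 0 higher, where 1.63% and 0.353% of all tested genes were. In *peg/peg* aortae 50 of 64 lay below 0, with a median of -0.29. Here 0 were lower and 2 higher, where 1.27% and 3.04% of all tested genes were.

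All 7 of the HDR genes belonged to the 22 genes of fatty acid uptake and triglyceride synthesis (median -0.39, 20 of 22 below 0), and most of them make fatty acids anew from glucose. *Acly*, which splits citrate to supply acetyl-CoA, was at 398, 302, 357, 741 and 1814 CPM in WT_2 to WT_6 and at 226, 232, 335, 142 and 168 CPM in Mut_2 to Mut_6. The genotypes overlapped only through WT_3 and Mut_4. Its log2 fold change was -1.71 (SE 0.48, adjusted p = 1.00 by edgeR), further below 0 than that of any of the 10 genes. *Acaca*, which commits acetyl-CoA to fat, had a log2 fold change of -1.15 (SE 0.44), *Me1*, which supplies NADPH, of -1.28 (SE 0.45) and *Fabp5*, a fatty acid carrier, of -0.94 (SE 0.36), all with an adjusted p of 1.00 by edgeR. In *peg/peg* aortae the same 4 genes were near 0 or below, with log2 fold changes of -0.01 for *Acly* (SE 0.63), -0.23 for *Acaca* (0.71), 0.04 for *Me1* (0.38) and -0.35 for *Fabp5* (0.36). Without WT_6, 15 of 22 genes lay below 0 (median -0.25) and 2 passed the unadjusted threshold lower, against 0.863% of all genes then tested, *Acly* (-1.03, SE 0.30) and *Me1* (-0.51, SE 0.20). Without Mut_6, 17 of 22 lay below 0 (median -0.31) and the same pair passed, against 0.98%, at -1.63 (SE 0.53) and -1.21 (SE 0.51), while *Acaca* (-0.99, SE 0.45) and *Fabp5* (-0.84, SE 0.39) no longer did. *Lep* and these genes had lower fitted values than *Adipoq* and the droplet genes in the HDR experiment, and a difference among genes was not tested.

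Of the other lipid droplet and lipolysis genes, 12 of 14 (median -0.17) lay below 0 in *sg/sg* and 14 of 15 (median -0.42) in *peg/peg* aortae, and 0 had an unadjusted p under 0.05. Without WT_6, 7 of 14 lay below 0 in *sg/sg* (median 0.015), and without *peg/peg* replicate 3, 13 of 15 did in the PE2 experiment (median -0.28). Among them *Mgll*, the lipase for monoglycerides, was at 187 ± 59.0 and 161 ± 30.9 CPM in the HDR genotypes and at 287 ± 40.7 and 214 ± 53.2 CPM in the PE2 genotypes (log2 fold changes -0.21 and -0.42, standard errors 0.20 and 0.20), and *Adrb3*, the β-adrenergic receptor that triggers lipolysis, had log2 fold changes of -0.87 (SE 0.53) and -0.69 (SE 0.59). Adipocyte transcription factors had medians of -0.09 and -0.25. *Cebpd*, an early factor of adipocyte formation that also responds to glucocorticoids, was at 17.3, 13.6, 14.3 and 13.0 CPM in PE2 wild-type and at 31.1, 29.7, 21.2 and 29.4 CPM in *peg/peg* aortae. Its groups did not overlap, as for 2.54% of all tested genes, and its log2 fold change was 0.94 (SE 0.15), which was not called (adjusted p = 0.782 by edgeR, and 0.103 without *peg/peg* replicate 3). In the HDR experiment *Cebpd* had a log2 fold change of -0.05 (SE 0.40).

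On the receiving side, adipokine receptors and other adipokines had medians of 0.01 for *sg/sg* and -0.21 for *peg/peg*, with 0 genes at an unadjusted p under 0.05. *Lepr*, the leptin receptor, was at 40.1 ± 14.8 and 52.3 ± 12.8 CPM in HDR wild-type and *sg/sg* aortae (log2 fold change 0.38, SE 0.25), and *Adipor2*, a receptor for adiponectin, at 224 ± 85.6 and 185 ± 71.9 CPM. In the PE2 experiment the log2 fold change of *Lepr* was 0.79 (SE 0.63), and -0.22 (SE 0.34) without *peg/peg* replicate 3. Genes of the insulin response had medians of -0.14 and 0.10. *Irs2*, an adaptor of the insulin receptor, was at 28.8, 15.5, 17.2 and 10.3 CPM in PE2 wild-type and at 62.8, 39.6, 24.0 and 42.2 CPM in *peg/peg* aortae, a log2 fold change of 1.23 (SE 0.37, adjusted p = 0.861 by edgeR). The log2 fold change of *Irs2* in *sg/sg* aortae was 0.07 (SE 0.27). *Slc2a4*, the insulin-regulated glucose transporter of fat and muscle, had log2 fold changes of -0.58 (SE 0.33) in *sg/sg* and 0.10 (SE 0.36) in *peg/peg* aortae. Without *peg/peg* replicate 3, where *Slc2a4* was at 139 CPM, the PE2 value was -0.14 (SE 0.34).

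**Figure D4:**
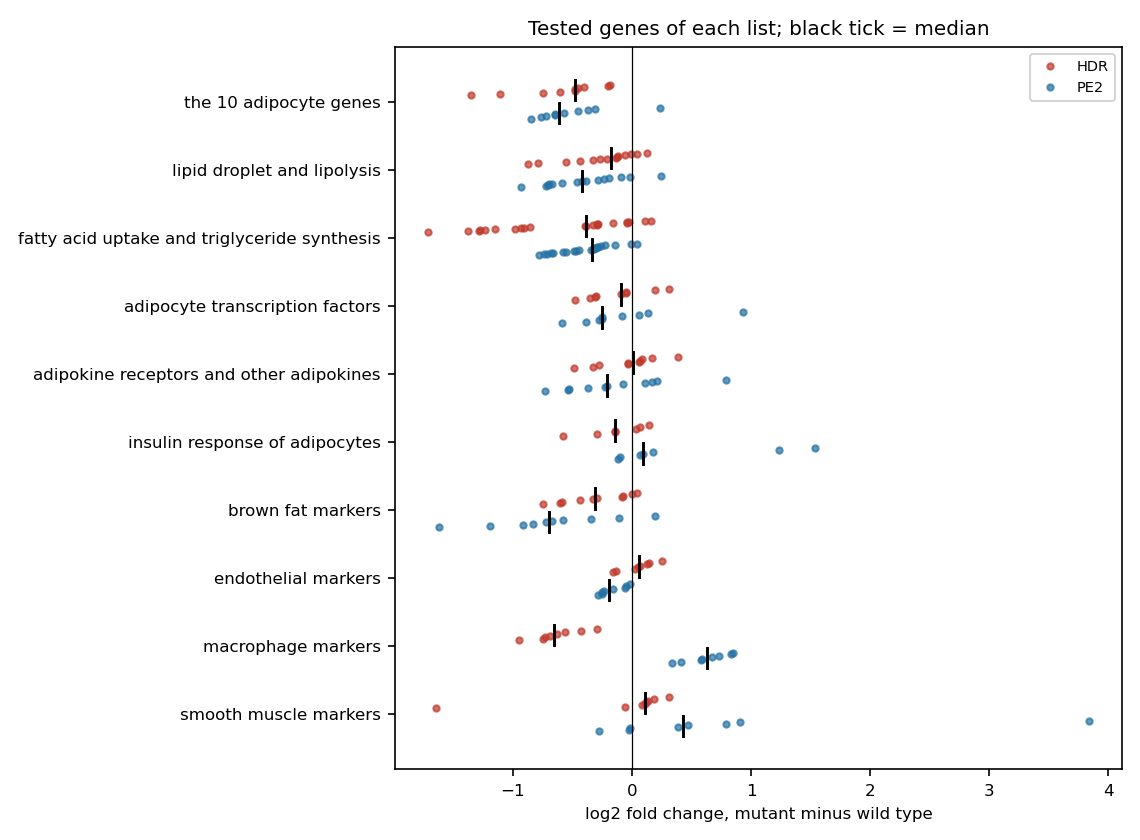
Fitted log2 fold change, mutant minus wild type, of every tested gene of the 10 adipocyte genes, of 5 related lists and of 4 marker lists, in the HDR and the PE2 experiment, with a black tick at each list's median. The 10 adipocyte genes have medians of -0.48 and -0.61, the macrophage markers lie on opposite sides of 0 (medians -0.66 and 0.63), and the lowest point of the fatty acid list in the HDR experiment is *Acly* (-1.71).

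The edits were also compared with each other. The HDR change minus the PE2 change was between -1.33 (*Retn*) and 0.52 (*Pnpla2*) on the log2 scale for the 10 genes, with standard errors of 0.62 to 0.98 and adjusted p from 0.974 to 1.00 in edgeR's interaction test. That test called 0 of the 18094 genes it covered, with 929 (5.13%) at an unadjusted p under 0.05 and 0 of the 10 among them. For *Lep* the difference was -0.95 (SE 0.98) and for *Adipoq* 0.06 (SE 0.88). With errors of this size, a difference between the experiments smaller than about 1.96 standard errors was not detectable for any of the 10 genes. A call over all genes covered would need a larger difference.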

How the data were processed

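Polyadenylated RNA of single aortae was sequenced in 5 HDR wild-type, 5 *sg/sg*, 4 PE2 wild-type and 4 *peg/peg* samples. The authors deposited raw counts per gene symbol, which the submitters' notes and the methods attribute to STAR 2.7.0f on GRCm38 and featureCounts of Subread 1.6.4. A further 18 deposited columns of counts divided by size factors, from DESeq2 1.22.1, were not used. HDR columns (WT_2 to WT_6, Mut_2 to Mut_6) give the genotype but no labelled sex or number, and PE2 columns were tied to samples by title. The strand setting is not given in the sources used here, and labels and methods name different library kits.

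edgeR 4.0.16 (R 4.3.3) was run on all genes of each experiment alone (TMM, filterByExpr, estimateDisp, glmQLFit, glmQLFTest, no covariate), with Benjamini-Hochberg adjusted p under 0.05 as the threshold, and over all libraries for the interaction. It was tested on simulated data. DESeq2 1.42.0 and limma 3.58.1 (voom) were alternatives, with other size factors, filters, sex, the replicate number and left-out libraries. The labels do not say that samples of a group came from separate litters, so p-values measure the spread between these samples. Correlations used log2 of CPM plus 0.5. Python 3.11.15, pandas 2.3.3 and matplotlib 3.10.9 made summaries and plots. Positions, merged exon lengths and overlapping genes came from Gencode M21.

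The 10 genes, the other lists and the markers were chosen with earlier results of these data known. Named beside the 10 genes were the 4 genes of each related list with the smallest unadjusted p in either experiment, or fewer, and the 5 genes most correlated with the 10. *Acta2* and *Ucp1* are from the marker lists. Lists without WT_6, Mut_6 or *peg/peg* replicate 3 were added after seeing the data. No pair of libraries of one group agreed within sampling noise (lowest chi-square per degree of freedom 17.2). None of 40 checks of a gene in a group with Dixon's ratio passed its 95% value (0.829 for 4 and 0.71 for 5 samples).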

Additional observations from a re-analysis of the deposited data

How the results depend on the processing

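In both experiments 0 of the 10 adipocyte genes were called under all alternatives run. The HDR fold changes kept their sign in 70 of 70 values under 7 other settings and in 96 of 100 with 1 library left out, and the PE2 fold changes in 90 of 90 under 9 settings and in 77 of 80. The values that turned were, without WT_6, *Cidec* (0.084, lowest -0.76 without Mut_4), *Pnpla2* (0.064, lowest -0.47), *Fabp4* (0.040, lowest -0.81) and *Pparg* (0.091, lowest -0.59), without PE2 wild-type replicate 1 *Cfd* (0.23, lowest -0.87 without *peg/peg* replicate 2), and *Retn* without wild-type replicate 3 (-0.049) and without *peg/peg* replicate 2 (-0.10, highest 0.60 without wild-type replicate 1). Adjusted p of the 10 genes were 0.669 to 1.00 (HDR) and 0.600 to 1.00 (PE2). The count of all genes called went from 1 to 4 in the HDR experiment by DESeq2 and by edgeR without the filter. In the PE2 experiment it went from 1 to 33 by DESeq2, to 2 by edgeR's newer quasi-likelihood, added after seeing the data because the planned legacy form proved to be the default, and to 0 with sex as a covariate and in female libraries alone, and the cause was not tested. With 1 library left out it ran from 0 to 2. The count of the interaction ran from 0 to 4 (1 without wild-type replicate 1, 4 without *peg/peg* replicate 2, 2 without *peg/peg* replicate 4). PE2 samples of 1 number did not deviate together (r of -0.046, -0.18, -0.036 and -0.25), so the numbers do not pair them, and with the replicate block 0 genes were called. HDR columns share the numbers 2 to 6 across genotypes, which are not the labels' numbers. Same-numbered columns correlated at 0.61, 0.17, -0.18, 0.47 and 0.31, not all above 0.1, so the numbers were not taken to pair them. Columns of different numbers also correlated, WT_2 with Mut_3 at 0.56 and WT_5 with Mut_6 at 0.53, while WT_2 with Mut_6 was at -0.62. What such columns share is not known and was not tested. A replicate block by the number, added after seeing the data, called 1 gene and 0 of the 10. Not every column correlated best with its own number. The lowest count of the 10 genes was 24 (*Lep* in *peg/peg* replicate 3), so depth limits that value most.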
